A study of Homo sapiens with 6 samples.

Results

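The expression of 10 genes of the interleukin 6 (IL6) family and its signaling chain was examined in RNA of H1650, the label of an established human line of lung adenocarcinoma. The genes were chosen by name, with earlier results of these data known. The ligands were IL6, LIF and IL11, and the receptor chains IL6R, IL6ST, LIFR and OSMR. The others were the kinase JAK1, the transcription factor STAT3 and the feedback inhibitor SOCS3. Of these 10 genes, 9 are among the 15897 genes listed in the deposited table, and IL11 is not listed. Cytokines of this family bind a specific receptor chain and recruit the shared chain gp130, which is encoded by IL6ST. Kinases bound to the receptors, mainly JAK1, then phosphorylate STAT3, which enters the nucleus and activates genes such as SOCS3, whose product shuts the receptor down. In lung adenocarcinoma, IL6 and STAT3 signaling is known as a link between inflammation and tumor growth.

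Total RNA was sequenced in 6 libraries, 3 from cells labelled wild type control and 3 from cells of the same line labelled shSETD2, in which short hairpin RNAs carried by lentivirus target the histone H3K36 methyltransferase SETD2. The study describes 3 hairpin constructs, but the labels leave unsaid which of them each shSETD2 library received. Nothing states that the libraries of a group came from separate cultures, so p-values measure only the spread between these libraries, which may be technical. Expression is given as FPKM, a fragment number normalised for the length of the gene and the size of the library, so levels can be set side by side between genes. Where 3 values are given for a group, they are in the order of libraries 1 to 3.

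SETD2, the targeted gene, gave 18.0, 10.2 and 17.6 FPKM in control and 8.97, 8.09 and 12.2 FPKM in shSETD2. The groups overlapped, and the log2 fold change on log2(FPKM + 1) was -0.58 (standard error, SE, of 0.24, adjusted p = 0.0641 in limma, fitted as described with the comparison). Without control library 2, it was -0.83 with an adjusted p of 6.66e-03, and without shSETD2 library 3 it was -0.73 with an adjusted p of 0.0420. Leaving out any other single library gave -0.53 to -0.45 with adjusted p-values from 0.149 to 0.181, and median ratio scaling gave -0.25 with an adjusted p of 0.377. Between libraries of different groups, Pearson's r across genes, which are not independent replicates, was between 0.701 and 0.707, against 0.982 to 0.990 within a group. Of 11 markers of lung epithelium, 1 is listed (NKX2-1, at 1.44 to 1.80 FPKM in control and listed at 0 in every shSETD2 library), so the labelled tissue has almost no marker in these tables. Of 7 genes used as markers of embryonic kidney lines, LIN28B, NEFL and NEFM lay between 16.4 and 39.1 FPKM in the control libraries and are listed at 0 in every shSETD2 library, whereas PAX8 was at most 0.0368 FPKM in control and between 28.1 and 35.2 FPKM in shSETD2. The summed level of that list was 87.2 to 93.9 FPKM in control and 43.0 to 51.8 FPKM in shSETD2. Of 11 epithelial markers 9 are listed, with a sum of 14.4 to 16.4 FPKM in control and 406 to 459 FPKM in shSETD2, most of it from the keratins KRT7, KRT8 and KRT18. KRT7 was at most 0.0375 FPKM in control and 77.0 to 87.1 FPKM in shSETD2. The other listed epithelial markers went both ways. Lower in shSETD2 were CDH1, with means of 1.27 FPKM in control and 0.012 FPKM in shSETD2, and EPCAM, with 0.710 and 0.220 FPKM. CLDN7 was also lower, at a mean of 0.192 FPKM in control and almost 0 in shSETD2. Higher in shSETD2 were ELF3 (means of 0.221 and 4.23 FPKM), ESRP1 (0.018 and 0.803 FPKM) and CLDN4 (0.067 and 0.175 FPKM). Fibroblasts and leukocytes, both known sources of IL6, were represented by 4 of 9 and 2 of 8 markers, summing to 4.04 to 4.54 and 1.33 to 1.62 FPKM in control and to 0.292 to 0.340 and 1.91 to 2.24 FPKM in shSETD2. PTPRC, which marks leukocytes in general, is not listed. These marker differences run along the same groups as every result that follows, and their part in those results was not tested. In bulk RNA, fewer cells of a type and less RNA per cell cannot be told apart.

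The comparison used log2(FPKM + 1) and the moderated test of limma, with Benjamini-Hochberg adjustment over the 14068 genes whose FPKM averaged 0.5 or more across libraries. For genes with low FPKM, adding 1 makes the fold changes smaller than those of the FPKM. Between the groups 78.6% of all genes tested passed an adjusted p of 0.05, 26.8% higher and 51.8% lower in shSETD2, so passing the test sets no gene apart. Over all genes tested, the log2 fold change had a median of -0.29. Of the 9 listed genes of the family, 7 were higher in shSETD2 and 2 did not pass the test (IL6R and LIFR). None was lower, also at an unadjusted p under 0.05, where limma gave 0 genes. Over the 9 genes it had a median of 2.21. IL6, LIF and OSMR passed the filter on low values through the shSETD2 libraries alone, so each of them had to differ in order to be tested. The groups did not overlap for 8 of the 9 genes, against 80.9% of all genes tested. All shSETD2 values exceeded all control values for 7 of them (against 27.9%), and all control values exceeded all shSETD2 values for IL6R (against 53%). Because the genes were chosen with earlier results of these data known, their shares cannot be weighed against those of all genes. With 3 libraries against 3, the exact two-sided permutation test gave p = 0.1 for each of these 8 genes, the smallest p that this design allows.

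**Figure D1:**
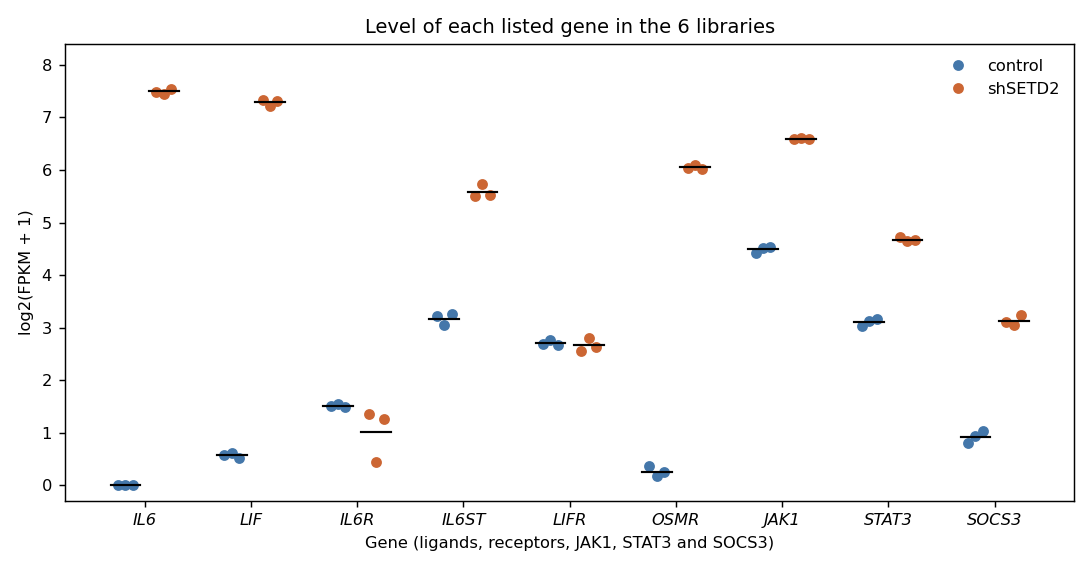
Level of each listed gene as log2(FPKM + 1) on the vertical axis, with 1 point per library (3 control, 3 shSETD2) and a black line at the mean of each group. IL6, LIF and OSMR lie below 0.6 FPKM in every control library and above 60 FPKM in every shSETD2 library, while the groups overlap for LIFR, and shSETD2 library 2 lies apart for IL6R.

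The ligands IL6 and LIF were among the most abundant transcripts of the shSETD2 libraries and near or at 0 in the controls. IL6 (ENSG00000136244.11_3), the cytokine that gives the family its name and that drives the acute phase response, maps to chr7:22765503-22771621 (GRCh37, plus strand). It is listed at 0 in all 3 control libraries, and the shSETD2 libraries gave 179, 174 and 185 FPKM. All shSETD2 libraries were high and close together, and no fold change is given because the control values are 0 (adjusted p = 1.95e-09 in limma). Since IL6 passed the filter through the shSETD2 libraries alone, its p-value is not independent evidence of a difference. STEAP1B, placed 93.0 kb from IL6 in the deposited table, overlaps IL6 by 1730 bases on the opposite strand in a later GENCODE annotation of GRCh37, and it rose from a mean of 0.811 to 3.90 FPKM. In shSETD2, 99.4% of listed genes had a lower mean FPKM than IL6.

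LIF (ENSG00000128342.4_2) encodes leukemia inhibitory factor, which signals through LIFR paired with gp130 and is known for keeping mouse embryonic stem cells undifferentiated. It maps to chr22:30636436-30642840 (GRCh37, minus strand). The controls gave 0.495, 0.523 and 0.438 FPKM and the shSETD2 libraries 161, 147 and 159 FPKM. The groups were far apart, with means of 0.485 ± 0.0436 and 155.5 ± 7.34 FPKM (SD, n = 3) and a ratio of means of 321. The log2 difference was 6.72 (SE 0.052, adjusted p = 4.59e-09 in limma). LIF was tested only because of its shSETD2 values, so this p-value is not independent evidence of a difference.

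The sequence before the start of a gene is shown for IL6, OSMR and IL6ST, the ligand and the receptor chains that rose, to set their promoters beside each other. RefSeq promoter sequences on GRCh38.p14, a later build than that of the expression table, were matched by symbol for 9 of the 10 genes. LIF has none. Each run holds the 250 bases before the annotated start, 5′ to 3′ on the strand of the gene. Capitals mark matches to the NF-κB consensus of 10 letters or to the letters TTCNNNGAA (STAT), TGANTCA (AP-1) or TTGCNNAA (C/EBP), searched on both strands. Matches to different motifs did not overlap in these windows.
IL6, chr7:22726950-22727199, plus strand: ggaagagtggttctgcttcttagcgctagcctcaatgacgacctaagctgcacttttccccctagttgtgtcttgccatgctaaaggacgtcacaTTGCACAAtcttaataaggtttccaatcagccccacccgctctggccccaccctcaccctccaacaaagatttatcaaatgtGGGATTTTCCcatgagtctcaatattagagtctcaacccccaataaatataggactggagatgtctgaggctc
OSMR, chr5:38845762-38846011, plus strand: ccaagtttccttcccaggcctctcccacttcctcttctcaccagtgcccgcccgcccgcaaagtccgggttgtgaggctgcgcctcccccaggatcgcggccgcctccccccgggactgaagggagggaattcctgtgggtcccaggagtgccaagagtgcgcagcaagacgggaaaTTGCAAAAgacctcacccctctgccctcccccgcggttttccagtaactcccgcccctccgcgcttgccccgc
IL6ST, chr5:55994964-55995213, minus strand: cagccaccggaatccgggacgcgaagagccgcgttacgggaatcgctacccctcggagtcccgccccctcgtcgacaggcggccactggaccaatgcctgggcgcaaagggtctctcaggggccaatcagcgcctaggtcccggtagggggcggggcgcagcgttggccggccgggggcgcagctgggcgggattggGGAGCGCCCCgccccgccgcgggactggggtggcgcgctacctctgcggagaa
The IL6 window held 1 match to the NF-κB consensus, with its first base at -73 from the start, and 1 to the C/EBP letters at -155. The NF-κB consensus occurs in 9.96% of the 35116 promoter windows of this length and the C/EBP letters in 9.05%. OSMR held 1 match to the C/EBP letters, also at -73, and IL6ST held 1 to the NF-κB consensus at -53, on the other strand. The windows differed in base composition, with 4 CpG dinucleotides and 47.6% GC for IL6, 17 and 66.4% for OSMR, and 31 and 73.6% for IL6ST. The STAT letters, found in 6.57% of windows, are in 2 of the 3 windows of LIFR and in 0 of the 3 windows of SOCS3 and STAT3 together. The AP-1 letters, also in 6.57% of windows, are in the window of IL11 and in no other of the 14 windows of these genes. A match is a description of letters, and the absence of one says nothing about the binding of a factor.

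Among the receptor chains, OSMR and the shared gp130 rose, whereas IL6R and LIFR, which bind IL6 and LIF, did not pass the test. OSMR (ENSG00000145623.12_3), which pairs with gp130 to bind oncostatin M, maps to chr5:38845960-38945698 (GRCh37, plus strand). The controls gave 0.280, 0.131 and 0.181 FPKM and the shSETD2 libraries 65.0, 67.6 and 63.6 FPKM. The shSETD2 libraries were uniformly high, with 332 as the ratio of means. On the log2 scale the difference was 5.80 (SE 0.061, adjusted p = 1.12e-08 in limma). As for IL6 and LIF, passing the filter already required OSMR to differ, so the p-value adds no independent evidence. The end of OSMR overlaps RICTOR on the opposite strand over 7677 bases, and RICTOR rose from a mean of 6.14 to 13.9 FPKM. The library kit marks strand per the labels, but whether the authors' quantification used it is not given in the sources used here.

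IL6ST (ENSG00000134352.19_2) encodes gp130, the chain that nearly all receptors of the family share, and maps to chr5:55230923-55290821 (GRCh37, minus strand). It was at 8.29, 7.23 and 8.51 FPKM in control, against 44.4, 52.2 and 44.8 FPKM in shSETD2. It was well expressed in both groups, and all shSETD2 values lay above those of the controls. The log2 difference was 2.42 (SE 0.086, adjusted p = 9.30e-07 in limma), a ratio of means of 5.89.

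IL6R (ENSG00000160712.12_2), the chain that binds IL6 itself, maps to chr1:154377669-154441926 (GRCh37, plus strand). The controls gave 1.85, 1.90 and 1.80 FPKM and the shSETD2 libraries 1.56, 0.356 and 1.40 FPKM. The shSETD2 libraries were all below the controls, but library 2 stood far below the others. The difference of -0.49 on the log2 scale did not pass the test (SE 0.24, 95% interval -1.07 to 0.086, adjusted p = 0.0999 in limma). Without shSETD2 library 2 it was -0.20 with an adjusted p of 0.0333. IL6R stayed below 2 FPKM in every library of both groups.

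LIFR (ENSG00000113594.9_2), the chain that binds LIF, maps to chr5:38475065-38608456 (GRCh37, minus strand). It was at 5.46, 5.75 and 5.37 FPKM in control, against 4.85, 5.98 and 5.20 FPKM in shSETD2. The groups overlapped, and the log2 difference was -0.04 (SE 0.076, 95% interval -0.23 to 0.14, adjusted p = 0.611 in limma). The scaling of the libraries decided the direction for LIFR, which was 0.26 with an adjusted p of 0.0202 after median ratio scaling, where the median of all genes moved from -0.29 to -0.01. LIFR and OSMR are neighbours on chromosome 5, separated by 237.5 kb, and are transcribed away from each other.

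The kinase, the transcription factor and its feedback inhibitor were all higher in shSETD2. JAK1 (ENSG00000162434.11_2), the tyrosine kinase on which gp130 signaling mainly depends, maps to chr1:65298912-65432187 (GRCh37, minus strand). It was at 20.4, 21.9 and 22.1 FPKM in control, against 95.4, 96.9 and 95.7 FPKM in shSETD2. JAK1 was the most abundant of the 9 genes in control, and it rose by 2.11 on the log2 scale in shSETD2 (SE 0.041, adjusted p = 7.87e-08 in limma). RAVER2, which ends against JAK1 on the opposite strand, went the other way, from a mean of 14.7 to 5.22 FPKM.

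STAT3 (ENSG00000168610.14_3) encodes the transcription factor that carries the signal to the nucleus and maps to chr17:40465342-40540586 (GRCh37, minus strand). It was at 7.19, 7.74 and 7.91 FPKM in control, against 25.3, 24.0 and 24.3 FPKM in shSETD2. The groups were apart by 1.57 on the log2 scale (SE 0.050, adjusted p = 6.00e-07 in limma). Its paralogs lie next to it. STAT5A, 1.4 kb away, was at or under 0.239 FPKM in every library. STAT5B, 36.6 kb away, fell from 13.0 ± 1.01 to 6.11 ± 0.198 FPKM (SD, n = 3). How reads matching more than one STAT gene were assigned is not given in the sources used here.

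SOCS3 (ENSG00000184557.4_3), a target of STAT3 whose product binds gp130 and blocks JAK activity, maps to chr17:76352859-76356158 (GRCh37, minus strand). It was at 0.738, 0.910 and 1.03 FPKM in control, against 7.55, 7.27 and 8.49 FPKM in shSETD2. No library of one group reached the other, and the difference was 2.21 on the log2 scale (SE 0.085, adjusted p = 1.31e-06 in limma), with 8.70 as the ratio of means. Protein levels and the phosphorylation of STAT3 were not measured in these libraries.

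The order of levels changed between the groups. In control, JAK1 was highest, at a mean of 21.4 FPKM, followed by IL6ST and STAT3, whose libraries overlapped, and then by LIFR, IL6R, SOCS3, LIF, OSMR and IL6. In shSETD2, IL6 was highest at a mean of 179.6 FPKM, followed by LIF, JAK1, OSMR, IL6ST, STAT3, SOCS3, LIFR and IL6R. No neighbours in this second order overlapped between libraries. LIFR and IL6R, the chains that bind LIF and IL6, were the least abundant of the 9 genes in shSETD2. LIF and IL6 themselves were the most abundant.

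**Figure D2:**
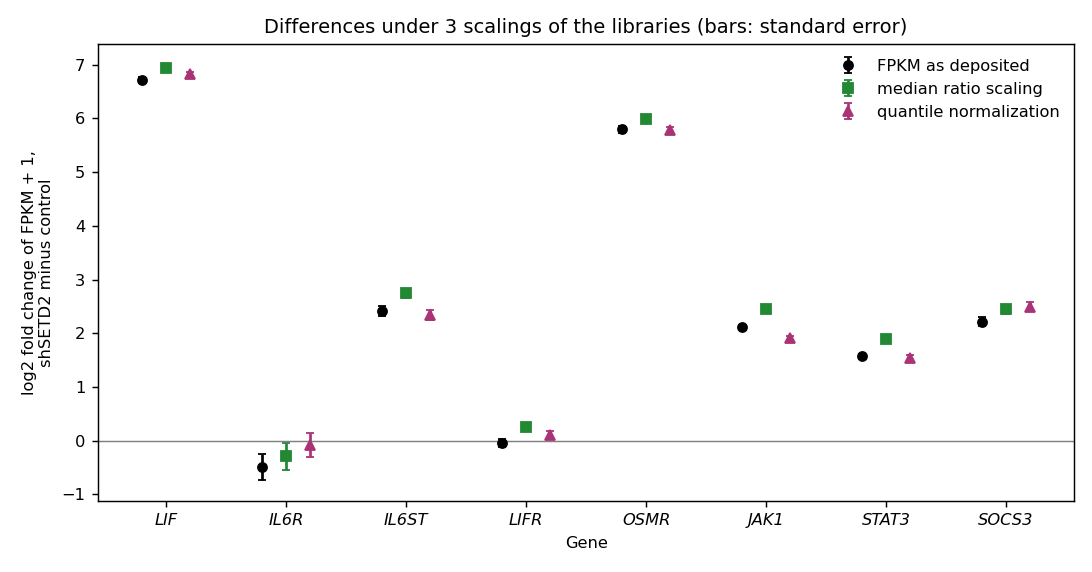
Log2 fold change of FPKM + 1 (vertical axis, shSETD2 minus control) for the 8 listed genes other than IL6, with the FPKM as deposited, after median ratio scaling and after quantile normalization. Points are estimates and bars standard errors from limma with 3 libraries per group. The 6 genes that rose stay above 1.5 under each scaling, and LIFR changes sign.

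By pattern over the 6 libraries, measured as the Euclidean distance of log2(FPKM + 1), the genes most like IL6 were HIST1H2BI (distance 0.15), HIST1H4L (0.28) and CDCP1 (0.51). Those most like LIF were CLDN1 (0.74), ICAM1 (0.84) and CXCL2 (0.85). Among those most like STAT3 were OXCT1 (0.20) and OGFR (0.22). These distances rest on 2 groups of 3 libraries each.

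Of 8 other ligands or ligand subunits, 5 are listed and were tested, of which 2 were higher, 2 lower and 1 neither in shSETD2, where 26.8% of all genes tested were higher and 51.8% lower. Both that were higher (EBI3 and CLCF1) passed the filter on low values through the shSETD2 libraries alone, and both that were lower through the controls alone, so these directions were set by the filter. EBI3, a subunit of interleukin 27, was at 0.253, 0.215 and 0 FPKM in control, against 18.3, 16.9 and 19.9 FPKM in shSETD2. CLCF1, a cytokine that signals through the ciliary neurotrophic factor receptor CNTFR, rose from 0.638, 0.0906 and 0.247 FPKM to 13.0, 11.0 and 13.9 FPKM. CLCF1 overlaps RAD9A on the opposite strand over 10010 bases. CTF1 (cardiotrophin 1) went the other way, from 1.31 ± 0.152 to 0.338 ± 0.138 FPKM (SD, n = 3). CNTFR itself, which passed the filter through the controls alone, fell from 2.72, 2.22 and 1.92 FPKM to 0, 0.0276 and 0 FPKM. CLCF1 and its receptor moved in opposite directions. Of 4 other receptor chains, 3 were tested, with IL27RA higher (2.34 to 5.11 FPKM) and CNTFR and IL11RA lower. IL11RA, the receptor of the unlisted IL11, moved little, from 2.72 ± 0.408 to 2.11 ± 0.166 FPKM (SD, n = 3, adjusted p = 0.0434 in limma). IL11RA overlaps GALT on the same strand over 334 bases. The call of IL11RA was lost without any one of control libraries 2 and 3 or shSETD2 libraries 1 and 2, with adjusted p-values from 0.0887 to 0.118, and after median ratio scaling, with one of 0.969. Oncostatin M (OSM), the ligand of OSMR, is not listed, nor are IL27, IL31 and IL31RA.

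Of the 9 remaining JAK and STAT genes 8 were tested, with 3 higher, 4 lower and 1 neither (TYK2), and a median log2 fold change of -0.08. These shares are near those of all genes tested (26.8% higher and 51.8% lower). STAT6, which carries interleukin 4 and 13 signals, rose from 2.43 ± 0.146 to 12.8 ± 0.511 FPKM (SD, n = 3, log2 fold change 2.01, adjusted p = 3.53e-07 in limma). STAT2, which carries interferon signals, rose by less, with a log2 fold change of 0.60. Of the kinases, JAK2 fell from 1.85 ± 0.128 to 1.23 ± 0.136 FPKM (SD, n = 3) and JAK3, a kinase of lymphocytes, from 1.10 ± 0.0544 to 0.136 ± 0.0273 FPKM (SD, n = 3). STAT4 fell from 1.17 ± 0.194 to 0.159 ± 0.00935 FPKM (SD, n = 3). JAK3 and STAT4 passed the filter through the controls alone. TYK2 was close to the threshold (log2 fold change 0.19, 95% interval -0.0058 to 0.40, adjusted p = 0.0686 in limma).

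Of 7 adaptors and sheddases, 3 were higher and 3 lower in shSETD2. Of all genes tested, 26.8% were higher and 51.8% lower, so 78.6% passed the test in either direction. SHC1, an adaptor that links receptors to RAS, had the largest difference, at 7.26, 7.27 and 6.73 FPKM in control and 155, 147 and 156 FPKM in shSETD2 (log2 fold change 4.25, adjusted p = 1.13e-08 in limma). SHC1 overlaps PYGO2 on the same strand over 1556 bases. The adaptor GAB1 fell from 3.47 ± 0.0864 to 1.54 ± 0.210 FPKM (SD, n = 3). The proteases that can release IL6R from the membrane moved apart, as ADAM10 rose from 4.16 ± 0.131 to 8.46 ± 0.785 FPKM and ADAM17 fell from 12.7 ± 0.697 to 7.39 ± 0.627 FPKM (SD, n = 3). PTPN11, which encodes the phosphatase SHP2, rose by little, from 44.2 ± 0.460 to 54.5 ± 1.39 FPKM (SD, n = 3).

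Among 14 other inhibitors of the pathway 13 were tested, of which 7 were higher, 4 lower and 2 neither, with a median log2 fold change of 0.19. Over all genes tested, 26.8% were higher and 51.8% lower, and 78.6% passed in either direction. SOCS1, which inhibits JAK kinases directly, was at 0.924, 0.636 and 0.736 FPKM in control, against 6.33, 5.52 and 5.78 FPKM in shSETD2 (log2 fold change 1.96, adjusted p = 1.98e-06 in limma). SOCS1 overlaps RMI2 on the opposite strand over 1775 bases. SOCS5 (log2 fold change 1.13) and SOCS2 (0.96) also rose, and SOCS7 fell by 0.93 on the log2 scale. CISH, a target of STAT5, rose by less, with a log2 fold change of 0.21 (adjusted p = 0.0130 in limma). After median ratio scaling 2 inhibitors in place of 4 were lower.

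Genes known as targets of STAT3 were mostly higher in the shSETD2 libraries. Of 17 such genes all were tested, with 14 higher and 3 lower, and their median log2 fold change was 2.04. Against this stand 26.8% of all genes tested that were higher. Many of these genes also respond to other factors, including NF-κB and AP-1, so the list is not specific to STAT3. The list was also chosen with earlier results of these data known, so its share cannot be weighed against that of all genes. ICAM1, an adhesion molecule, was at 0.102, 0.109 and 0.0832 FPKM in control, against 139.6, 129 and 133 FPKM in shSETD2. CCND1, which encodes cyclin D1, was at 5.82, 7.47 and 6.45 FPKM in control, against 179, 178 and 178 FPKM in shSETD2. Neither gene came near overlap between the groups. ICAM1 passed the filter through the shSETD2 libraries alone and so had to differ, and CCND1 had a log2 fold change of 4.57 (adjusted p = 5.53e-08 in limma). BCL2L1, the gene of the survival protein BCL-XL, rose from 6.06 ± 0.380 to 84.0 ± 3.33 FPKM, and CEBPD, a transcription factor of the acute phase response, from 1.16 ± 0.289 to 19.0 ± 1.90 FPKM (SD, n = 3). The 3 genes that fell were BCL6, BIRC5 and PIM1, and PIM1, a kinase gene that IL6 is known to induce, went from 7.19 ± 0.318 to 3.75 ± 0.268 FPKM (SD, n = 3).

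Of 11 acute phase genes, which IL6 induces in liver, 5 are listed, all of them low. SAA1 did not reach the filter on low values, and gave 0.0711, 0.422 and 0 FPKM in control, against 0.493, 0.926 and 0.589 FPKM in shSETD2. FGA, FGB, FGG and HP are listed at 0 in every shSETD2 library and passed the filter through the controls alone, so the test could place them only lower (adjusted p-values from 0.0256 to 0.0488 in limma). These calls were lost when any 1 of the 3 shSETD2 libraries was left out (0 of 4 genes called, and 1, 0 and 1 at an unadjusted p under 0.05 without libraries 1, 2 and 3). CRP, SAA2 and SERPINA3 are among those not listed.

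**Figure D3:**
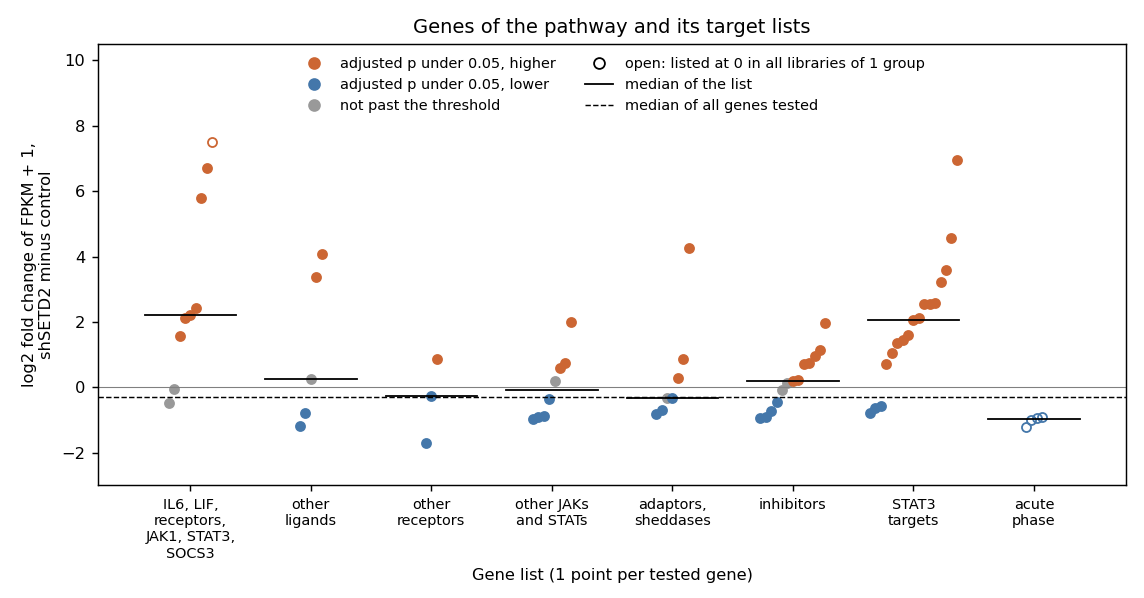
Log2 fold change of FPKM + 1 (vertical axis, shSETD2 minus control) of each tested gene in 8 lists, with 1 point per gene. Solid lines mark the median of a list, the dashed line marks the median of all genes tested at -0.29, and open points mark genes listed at 0 in every library of 1 group, whose height depends on the pseudocount. The 9 listed genes of the family and the STAT3 targets have medians of 2.21 and 2.04, and the other 6 lists have medians below 0.3. The lists were chosen with earlier results of these data known, and some of their genes passed the filter on low values through 1 group alone. The medians therefore cannot be weighed against each other.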

How the data were processed

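RNA of 3 control and 3 shSETD2 libraries was sequenced. The authors mapped reads to hg19 (GRCh37) with Hisat2, quantified genes with Ballgown and deposited FPKM per gene and library. Tool versions and the filter on listed genes are not given in the sources used here. A second deposited table repeats the FPKM of 15120 genes in all 6 libraries and adds the authors' fold changes, p-values, q-values and group means, which were not used. Low FPKM values were not multiples of 1 step, since at best 4.45% of ratios between 2 libraries fell on a simple fraction (within 0.2%), so the depth is unknown and counting errors could not be computed. The FPKM summed to 218769 to 224603 per library.

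The test was limma 3.58.1 (R 4.3.3; lmFit, then eBayes with trend) on log2(FPKM + 1) of the 14068 genes averaging 0.5 FPKM or more, with Benjamini-Hochberg adjustment and a threshold of 0.05. The fit was also run on simulated data with 200 genes changed. Far more genes were called in the real data, so that run says nothing about a difference this broad. Single genes also had an exact permutation test. The 10 genes and the gene lists were chosen with earlier results of these data known. Named genes were the 10 genes, SETD2, up to 4 genes per list with the largest absolute log2 fold change among those called without overlap, and the 3 nearest patterns to IL6, LIF and STAT3; further list genes are named as examples chosen after their values were seen. Some genes that this rule covers are left out of the text. Overlapping genes were taken from GENCODE for GRCh37. Replicate numbers did not pair libraries. Alternatives were other pseudocounts, filters and scalings, no trend, a replicate block and each library left out. Python 3.11.15, pandas 2.3.3, numpy 2.4.6 and matplotlib 3.10.9 were used.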

Additional observations from a re-analysis of the deposited data

How the results depend on the processing

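Alternatives were pseudocounts of 0.1 and 0.01, no filter or a mean FPKM of at least 5, quantile, median ratio and upper quartile scaling, no intensity trend, the replicate block, and each library left out. Under all 15, IL6, LIF, OSMR, IL6ST, JAK1 and STAT3 kept their direction and call, as did SOCS3 under the 14 that tested it. LIFR was reversed with quantile (0.11), median ratio (0.26) and upper quartile scaling (0.029) and without shSETD2 replicate 1 (0.012, with a range of -0.12 to 0.012 over the libraries left out), and IL11RA with quantile normalization (0.077). No listed gene of the family was called lower, except 1 (IL6R) without shSETD2 replicate 2, so this count ran from 0 to 1 over the libraries left out.

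With a mean FPKM of at least 5, fewer genes were tested: 2401 were higher and 3246 lower, with 0 other ligands lower, 0 other receptors higher and 0 lower, 1 other JAK or STAT lower, 3 inhibitors higher and 0 acute phase genes lower. Of the other receptors, 1 was lower with a pseudocount of 0.01, no filter, and quantile, median ratio or upper quartile scaling, and 1 to 2 over the libraries left out. Inhibitors lower numbered 2 with median ratio scaling. Acute phase genes lower numbered 2 without the filter (1 higher), 0 with quantile normalization, 2 with median ratio scaling, 2 without the trend, and 0 to 4 over the libraries left out. The cause of these shifts was not tested. Of all calls, 34.1% were higher, against 43.2% with quantile and 49.6% with median ratio scaling, which moved the median gene from -0.29 to -0.11 and -0.01.

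Same-numbered libraries did not deviate together (r of -0.02, 0.02 and -0.01), and not every library correlated best with its own number. With the replicate block, 3733 genes were higher and 7243 lower, and SETD2 was at -0.58 with an adjusted p of 0.0157. For SETD2, the log2 fold change ran from -0.83 to -0.45 over the libraries left out. Depth is unknown, so values near 0 carry an error that only 3 libraries estimate.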

Other observations

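Several genes of the pathway had 1 library far from the others of its group. FGA gave 0.541, 2.55 and 0.428 FPKM in control libraries 1 to 3, FGB at 0.667, 4.06 and 0.450, FGG at 0.604, 2.19 and 0.390 and HP at 0.383, 2.36 and 0.396, so that all 4 liver plasma protein genes were highest in control library 2. SAA1, at 0.422 FPKM there, was also highest in that control library. Groups of 3 libraries were not tested for outliers. MYC, which was called higher in shSETD2, was at 2.53, 2.00 and 2.66 FPKM in control, against 2.97, 11.3 and 14.9 FPKM in shSETD2, so shSETD2 library 1 lay close to the controls. GRB2, an adaptor of receptor signaling, was at 6.11, 21.6 and 23.3 FPKM in control, against 7.59, 7.09 and 26.6 FPKM in shSETD2, a spread within groups that exceeded the difference between them. CNTF was at 3.56, 1.28 and 1.87 FPKM and at 0.623, 5.01 and 4.17 FPKM, and shares its position with the readthrough gene ZFP91-CNTF over 1967 bases on the same strand.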
